A study of Mus musculus with 13 samples.

Results

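Galectins are small proteins that bind the galactose at the ends of the sugar chains of glycoproteins, and they can cross-link receptors on the cell surface. In blood vessels they are known for holding VEGF receptors, neuropilin and integrins at the membrane, and some of them also mark damaged endosomes inside the cell. The 5 genes described here, Lgals1, Lgals3, Lgals3bp, Lgals8 and Lgals9, were taken by symbol from the count tables of 13 libraries of mouse endothelial cells (ECs). They were 5 of 24984 genes listed for tumor ECs and 5 of 24421 listed for sprout ECs, and all 5 passed the filter on low counts in both sets, among 13073 and 14557 genes tested. The genes were selected on the tumor counts, because Lgals1 was lower in every Apelin-depleted tumor library, so the values of all 5 in that contrast are a description with no test.

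Tumor ECs came from orthotopic E0771 tumors, a mouse mammary carcinoma line, and were sorted as 100 cells that were DAPI-, CD45-, CD31+ and CD105+. The Apelin-depleted group (n = 3) was made of Apln-/- mice with shApln tumor cells, and the Apelin wild-type group (n = 6) of Apln+/+ mice with shRenilla tumor cells. Host and tumor Apelin were therefore lost together, and their parts cannot be told apart. Sprout ECs were CD31+ cells sorted from embryoid bodies that sprouted in collagen with 30 ng/ml VEGFA164. They came from sister embryonic stem cells (C57BL/6x129) that carry a gene trap in Apln in the sense orientation (Apln STOP, n = 2) or inverted by Cre (Apln GO, n = 2). The sample records list 1000 nM Apelin peptide in the protocol of both groups and do not say which libraries received it. By the study's text Apln GO received the peptide and Apln STOP the solvent, in which case genotype and added peptide differ together. Nothing in the labels says that libraries of a group came from separate cultures or pools of animals, and the p-values below measure only the spread between these libraries.

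Total counts ranged from 4661044 to 14455093 in tumor libraries and from 12327030 to 16804071 in sprout libraries. Levels are given as CPM, that is counts scaled by TMM-normalized library size, and 3 counts corresponded to between 0.177 and 0.594 CPM. Apln itself was at 12.02, 8.48 and 2.43 CPM in Apelin-depleted replicates 1 to 3 and between 415.0 and 1029 CPM in the 6 wild-type libraries. In sprout ECs Apln was not lower in Apln STOP, at 73.1 ± 9.94 CPM against 62.0 ± 5.49 CPM (SD, n = 2 each, log2 fold change 0.24 ± 0.16 SE, adjusted p = 0.367, edgeR). The study reported, with RT-qPCR of the stem cells, that the sense trap disrupted Apelin mRNA. Its trap lies after exon 1, and these counts per gene do not separate that exon from later ones. None of 12 endothelial markers was at 0 in any library. Their summed level was 8364 to 14104 CPM in tumor ECs, but 2468 and 2578 CPM in Apln GO and only 645.0 and 867.9 CPM in Apln STOP, where 11 of the 12 decreased. The summed level of 12 pluripotent cell markers was 6069 and 6297 CPM in Apln STOP and 2460 and 3990 CPM in Apln GO. In these bulk libraries fewer cells of a type and less RNA per cell cannot be told apart.

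Galectins are recognized by a conserved pocket whose coding stretch opens with codons for histidine, phenylalanine or leucine, asparagine, proline and arginine. Near its end lies a tryptophan, followed by a glycine, and this tryptophan stacks against the sugar. The coding stretches of this pocket are shown because their number separates the members into structural classes, and because they show how far the genes differ in sequence where the family is most alike. They were read from GENCODE M21 transcripts (GRCm38) on the coding strand, with the first run and the tryptophan-glycine codons in capitals.
Lgals1: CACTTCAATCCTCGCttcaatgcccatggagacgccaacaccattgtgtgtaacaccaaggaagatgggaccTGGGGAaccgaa
Lgals3: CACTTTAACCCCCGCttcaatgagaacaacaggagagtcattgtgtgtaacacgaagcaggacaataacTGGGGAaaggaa
Lgals8, first: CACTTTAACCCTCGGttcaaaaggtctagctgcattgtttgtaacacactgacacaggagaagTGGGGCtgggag
Lgals8, second: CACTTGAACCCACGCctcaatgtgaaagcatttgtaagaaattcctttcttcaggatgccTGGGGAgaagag
Lgals9, first: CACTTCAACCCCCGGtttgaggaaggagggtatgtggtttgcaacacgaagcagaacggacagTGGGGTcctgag
Lgals9, second: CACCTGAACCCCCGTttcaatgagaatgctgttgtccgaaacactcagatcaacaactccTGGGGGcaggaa
Lgals1 (ENSMUSG00000068220, chr15:78926725-78930465, plus strand) held 1 such stretch, in exon 3 of 4, at chr15:78929676-78929759. Its product works as a dimer. Lgals3 (ENSMUSG00000050335, chr14:47367751-47386160, plus strand) also held 1, in exon 5 of 6, at chr14:47384642-47384722, behind the long repetitive tail that lets galectin-3 form larger assemblies.

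Lgals8 (ENSMUSG00000057554, chr13:12439415-12464944, minus strand) and Lgals9 (ENSMUSG00000001123, chr11:78962974-78984946, minus strand) each held 2, as the tandem-repeat galectins do. Those of Lgals8 lay in exons 4 and 9 of 10, and those of Lgals9 in exons 3 and 10 of 11. Lgals3bp (ENSMUSG00000033880, chr11:118392751-118402092, minus strand) held none in its 577 codons. It is not a galectin but a secreted, heavily glycosylated scavenger-receptor protein that galectin-3 binds. Over the 27 bases at the ends of the stretches, the pairs shared between 66.7% and 81.5% of bases. The search that found the stretches required the same amino acid at most of these codons, so a high share was set in advance. A pseudogene, Lgals1-ps1, is annotated on chromosome 17. In the 4 sprout libraries, counts that leave out reads with several alignments (HTSeq) and estimates that share them out (RSEM) differed little, with ratios of 0.992 to 1.006 for Lgals1 and 0.957 to 1.044 over all 5 genes.

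Lgals1, the secreted galectin best known in tumor vessels, was at 372.7, 365.9 and 321.0 CPM in Apelin-depleted replicates 1 to 3. In the wild-type libraries it was at 529.6 CPM at the lowest, 1023 CPM at the median and 1471 CPM at the highest. All 3 depleted libraries were below all 6 wild-type libraries, which is the pattern the gene was chosen for. The depleted libraries lay within 1.16-fold of each other, while the wild-type libraries spanned 2.78-fold. The means were 353 ± 28.1 CPM and 1002 ± 312 CPM (SD), a 2.84-fold lower level with a log2 fold change of -1.50 ± 0.32 (SE), and it lay between -1.63 and -1.36 when any 1 library was left out. Of all genes tested 1.27% had every depleted library below every wild-type library. Genes are called decreased or increased below where edgeR's adjusted p was under 0.05 and the log2 fold change exceeded 1 in size. In tumor ECs only 1 gene, or 0.00765%, was called decreased, and that gene was Apln.

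**Figure D1:**
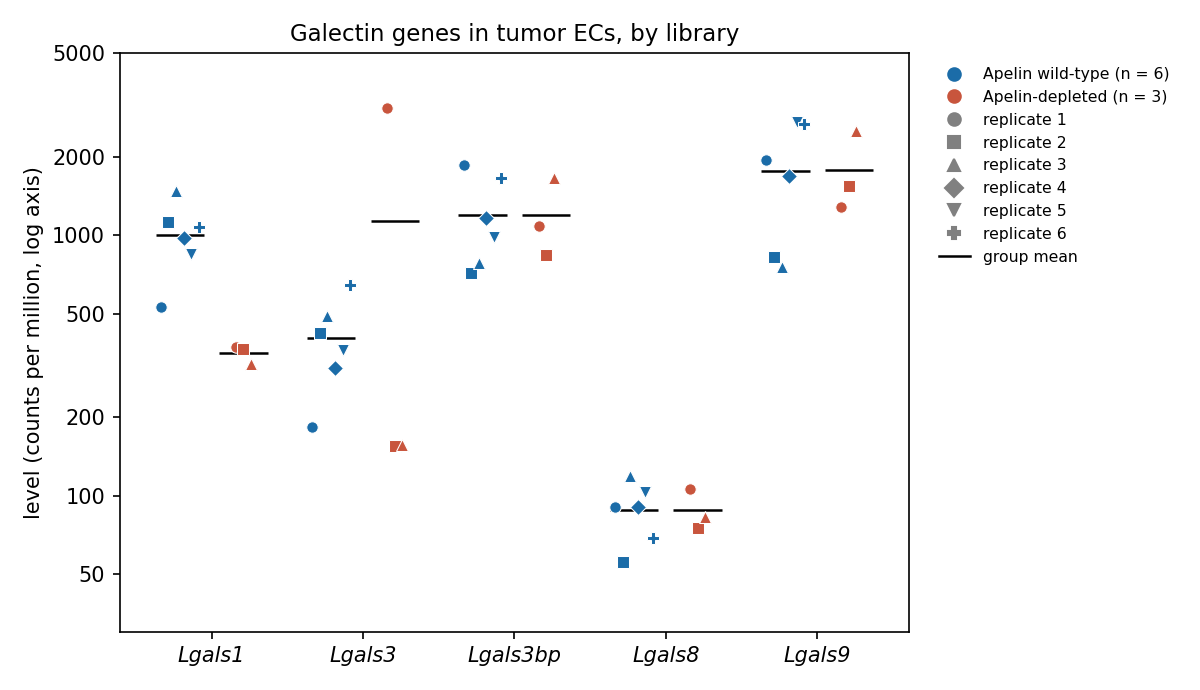
Level of each of the 5 genes in CPM (log axis) in the 6 Apelin wild-type and 3 Apelin-depleted tumor EC libraries, with symbols for replicates and bars for group means. For Lgals1 the 3 depleted libraries sit between 321.0 and 372.7 CPM, below the lowest wild-type library at 529.6 CPM, and for Lgals3 depleted replicate 1 sits alone at 3087 CPM.

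Lgals3, the chimera-type galectin also known as the macrophage antigen Mac-2, was split within the depleted group. It was at 3087 CPM in Apelin-depleted replicate 1 and at 155.6 and 156.7 CPM in replicates 2 and 3. The wild-type libraries ran from 183.0 CPM through a median of 390.9 CPM to 645.4 CPM. Replicate 1 was therefore 19.8-fold above the mean of the other depleted libraries and 4.78-fold above the highest of the other 8 libraries, while replicates 2 and 3 were below every wild-type library. The fitted log2 fold change was 1.49 ± 0.87 (SE) with all libraries and -1.36 without Apelin-depleted replicate 1, so this library sets the direction.

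Apelin-depleted replicate 1 also had the highest summed level of 12 macrophage markers, 982.2 CPM against 23.1 and 42.3 CPM in the other depleted libraries and 58.2 to 581.3 CPM in the wild-type libraries. Most of it was lysozyme, Lyz2, at 598.7 CPM, and Cd68 was at 114.3 CPM. None of the 12 markers was at 0 there, but Adgre1, which encodes the macrophage antigen F4/80, was at 1.52 CPM, below its 6.53 and 2.68 CPM in wild-type replicates 4 and 6. The 6 pan-leukocyte markers summed to 532.4 CPM in that library, 2.59 and 116.7 CPM in the other depleted libraries and 17.8 to 337.3 CPM in the wild-type libraries, although the sort excluded CD45+ cells. Its epithelial and mammary tumor cell markers summed to 224.4 CPM, against at most 67.4 CPM elsewhere, with 4 of the 12 at 0. Cldn4 alone made up 171.7 CPM of this. Krt8 was at 43.0 CPM, within the 5.28 to 65.1 CPM of the wild-type libraries. Epcam was at most 1.33 CPM and Cdh1 at most 0.339 CPM in the depleted libraries. The part of these cells in the Lgals3 level was not tested. Wild-type replicate 4 had the second highest macrophage sum, 581.3 CPM, with Lgals3 at 310.2 CPM, and wild-type replicate 6 had the highest Lgals3 of its group, 645.4 CPM, with a macrophage sum of 58.2 CPM.

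**Figure D2:**
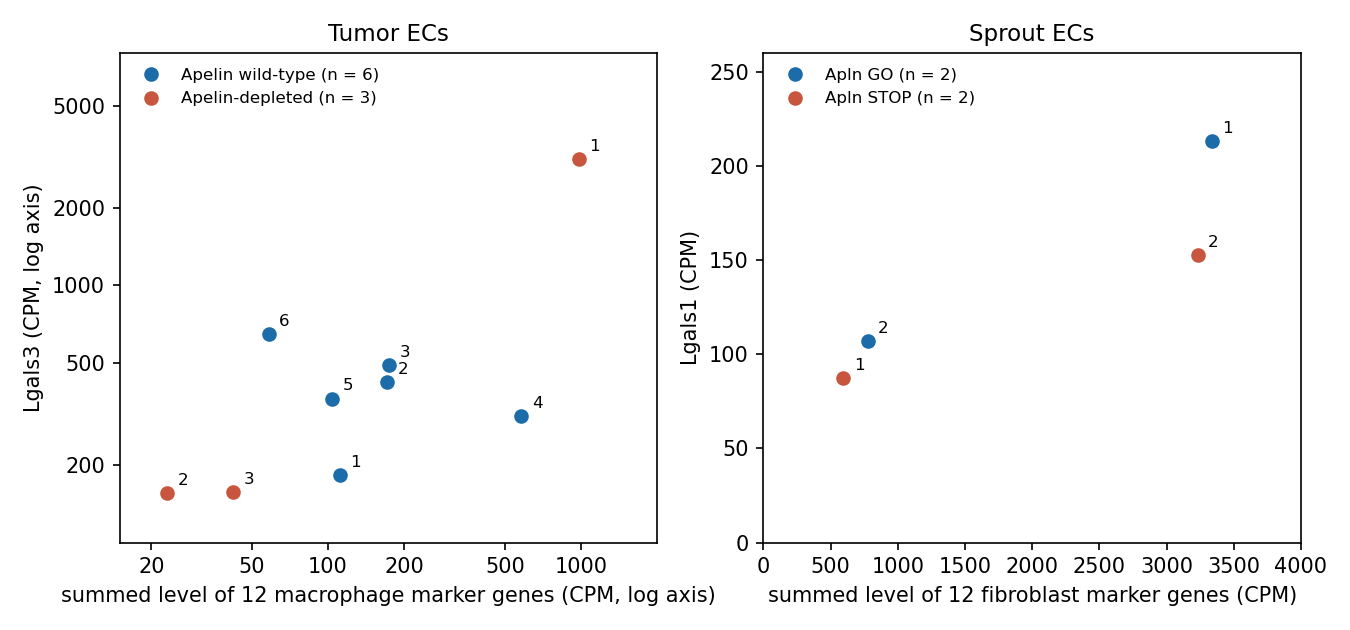
Left, Lgals3 (CPM) against the summed level of 12 macrophage markers (CPM) in the 9 tumor EC libraries, both on log axes. Right, Lgals1 (CPM) against the summed level of 12 fibroblast markers (CPM) in the 4 sprout EC libraries, where the libraries with high sums, Apln GO 1 and Apln STOP 2, have the higher Lgals1. Numbers are replicates and each point is 1 library.

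Other markers went with the groups as Lgals1 did, or in the opposite direction. All 12 endothelial markers were higher in the depleted group (median 0.36 on the log2 scale), with none past edgeR's test, and their sums overlapped at 10991 to 14104 CPM and 8364 to 12408 CPM. The 12 neutrophil markers summed to 0.243 to 3.37 CPM in the depleted libraries and 4.51 to 25.3 CPM in the wild-type libraries, without overlap. Between 2 and 10 of the 12 were at 0 in a library. Fibroblast markers summed to 60.7 to 689.6 CPM in the depleted and 121.5 to 7128 CPM in the wild-type libraries, with 7128 CPM in wild-type replicate 2 and at most 689.6 CPM in the other 8 libraries. Of 10 fibroblast markers tested, 8 were lower in the depleted group and 2 higher (median -3.58 on the log2 scale), although none passed edgeR's test. Col3a1, a fibrillar collagen, was, like Lgals1, lower in all 3 depleted libraries than in any wild-type library, at 1.96 to 23.0 CPM in the depleted and 28.2 to 1214 CPM in the wild-type libraries. Without wild-type replicate 2 the log2 fold change of Lgals1 was -1.47. Cldn4, a claudin of the epithelial list, was higher in the depleted libraries, at 171.7, 7.78 and 12.4 CPM, than in any wild-type library, at most 4.01 CPM. The summed mural cell markers overlapped between the groups, at 340.2 to 659.6 CPM and 435.2 to 916.7 CPM, but Mcam, which ECs also express, made up much of these sums. Of 11 mural markers tested, 10 were lower in the depleted group and 1 higher (median -1.05 on the log2 scale), and none passed the test. The pericyte receptor Pdgfrb was below every wild-type library, at 0.140 to 2.43 CPM in the depleted and 3.64 to 167.1 CPM in the wild-type libraries. The part of endothelial cell content, neutrophils, fibroblasts, epithelial and mural cells in the Lgals1 level was not tested.

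Lgals8 and Lgals9, the tandem-repeat galectins, and Lgals3bp had group means in tumor ECs that differed by less than their libraries varied. Lgals9, which binds the checkpoint receptor TIM-3 and is induced by interferons, was at 1284, 1549 and 2517 CPM in the depleted libraries, and at 756.9 to 2716 CPM with a median of 1810 CPM in the wild-type libraries (log2 fold change 0.01 ± 0.40 SE). Lgals3bp was at 1082, 840.2 and 1652 CPM in the depleted libraries and at 715.6 to 1862 CPM with a median of 1072 CPM in the wild-type libraries (log2 fold change -0.00 ± 0.34 SE). The groups overlapped for both genes, and the wild-type libraries spanned 3.59-fold for Lgals9 and 2.602-fold for Lgals3bp. Lgals8, which recruits the autophagy machinery to damaged endosomes, was at 105.8, 75.4 and 82.6 CPM in the depleted libraries and at 55.8 to 119.4 CPM with a median of 90.7 CPM in the wild-type libraries (log2 fold change -0.00 ± 0.32 SE). These groups overlapped too.

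To compare levels between genes, counts were divided by RefSeq transcript length and scaled to the same total in every library (TPM). In wild-type tumor ECs the order was Lgals1 at 2543 ± 974, Lgals9 at 2275 ± 952, Lgals3bp at 1084 ± 384, Lgals3 at 576 ± 221 and Lgals8 at 68.4 ± 21.5 TPM (SD, n = 6). The first 2 did not differ beyond their spread, and Lgals1 led in only 3 of the 6 libraries. Only 0.278% of genes with a length had a higher mean than Lgals1, against 20.4% for Lgals8. In depleted tumor ECs the order was Lgals9 at 2300 ± 698, Lgals3 at 1651 ± 2487, Lgals3bp at 1066 ± 315, Lgals1 at 869 ± 115 and Lgals8 at 66.6 ± 14.4 TPM (SD, n = 3). Here none of the first 4 neighbours differed beyond their spread, and Lgals3 ranked second only through replicate 1, since only Lgals8 was lower in replicates 2 and 3. Lgals8 was the lowest of the 5 in all 9 tumor libraries.

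As a share of the summed TPM of the 5 genes, Lgals1 made up 11.4%, 22.7% and 13.4% in Apelin-depleted replicates 1 to 3, and between 22.2% and 59.3% in the wild-type libraries. Unlike its level, this share overlapped between the groups, because wild-type replicate 1, with 22.2%, was just below depleted replicate 2. Wild-type replicate 1 also had the lowest Lgals1, 529.6 CPM, and the lowest Lgals3, 183.0 CPM, of the wild-type group. Lgals3 made up 54.3% in depleted replicate 1 and at most 11.6% in the other 8 tumor libraries. Lgals9 made up 16.3% to 56.2% over all 9, and had the largest share in 5 of them.

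**Figure D3:**
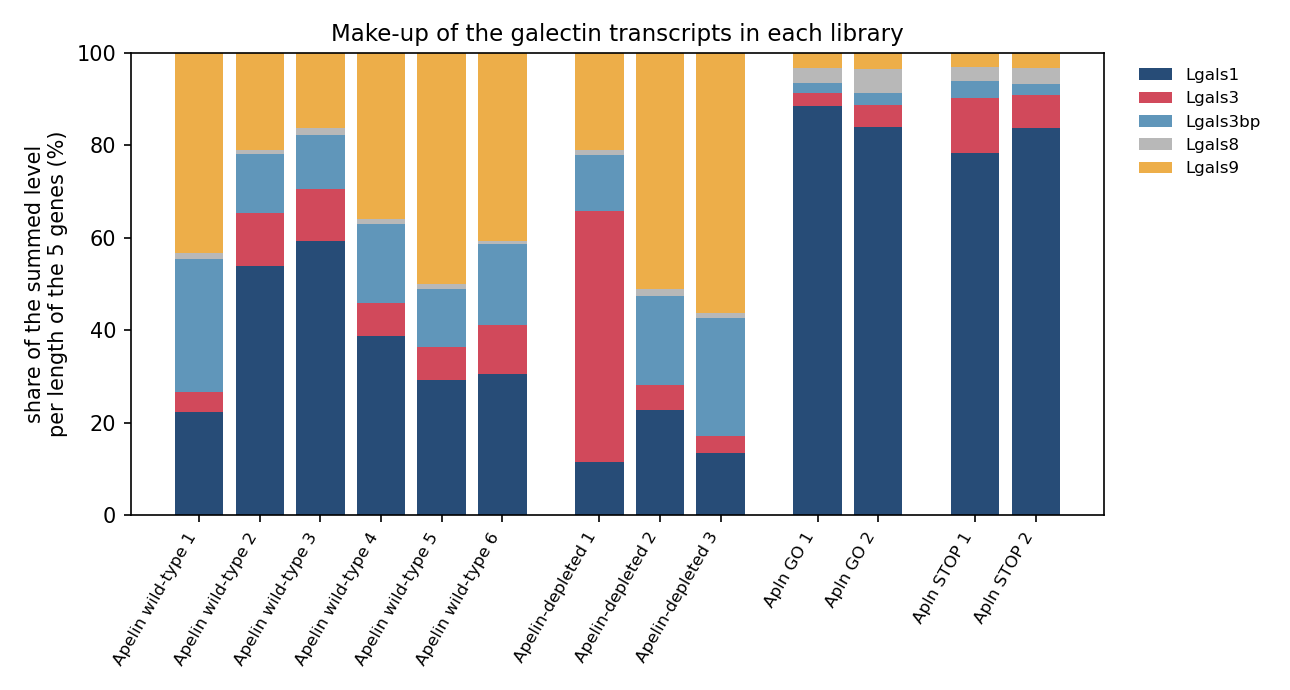
Share of each of the 5 genes in their summed level per transcript length (TPM), in percent, with 1 bar for each of the 9 tumor and 4 sprout EC libraries. Lgals1 ranges from 11.4% to 59.3% of the sum in tumor ECs and from 78.3% to 88.6% in sprout ECs, and Lgals3 takes 54.3% in Apelin-depleted replicate 1.

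The rule that selected the genes names no sprout value, so the members were tested in the sprout ECs, although earlier results of these libraries were also known when the genes were chosen. Lgals3 rose in Apln STOP. It was at 23.7 and 23.0 CPM in Apln STOP replicates 1 and 2 and at 11.1 and 10.7 CPM in Apln GO, from 351, 283, 189 and 133 counts. The groups did not overlap, and within each group the libraries lay within 1.04-fold of each other. The mean was 2.14-fold higher, 23.4 ± 0.505 against 10.9 ± 0.294 CPM (SD, n = 2 each), with a log2 fold change of 1.10 ± 0.21 (SE, 95% interval 0.62 to 1.57). The adjusted p was 0.0264 with edgeR's quasi-likelihood test and Benjamini-Hochberg adjustment over 14557 genes. Among all genes tested 0.852% increased by these thresholds, 31.0% had both Apln STOP libraries above both Apln GO libraries, and 9.26% had a fold change at least as large.

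With 1 library left out, 1 group has a single library, which is then assumed to vary like the libraries of the other group. With Apln STOP 1, Apln STOP 2, Apln GO 1 or Apln GO 2 left out the adjusted p was 0.134, 0.0618, 0.114 and 0.0517, while the log2 fold change stayed between 1.07 and 1.12. Along with Lgals3, the summed pluripotent cell markers were higher in Apln STOP, as given above. The 12 epithelial markers summed to 1351 and 987.0 CPM in Apln STOP and 809.1 and 761.1 CPM in Apln GO, also without overlap. Of 11 epithelial markers tested 6 were higher and 5 lower in Apln STOP, and none passed the test. Epcam, Cdh1, the claudins Cldn3, Cldn4 and Cldn7, and Esrp1 were the higher ones, and the 5 keratins tested were lower. The macrophage markers did not follow Lgals3 here, at 48.7 and 31.6 CPM in Apln STOP and 40.2 and 43.1 CPM in Apln GO. Adgre1 was at 0 in both Apln STOP libraries and Lyz2 was at most 0.677 CPM in all 4. The part of non-endothelial cells in the rise of Lgals3 was not tested.

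The other 4 members did not pass the test in sprout ECs. Lgals1 was at 87.5 and 152.8 CPM in Apln STOP and at 213.2 and 106.8 CPM in Apln GO, with overlap. Its log2 fold change of -0.42 ± 0.49 (SE) had a 95% interval from -1.83 to 1.00 (adjusted p = 0.646, edgeR), and it was 0.17 without Apln GO replicate 1. Lgals1 was high in the same libraries as the 12 fibroblast markers, which summed to 3337 CPM in Apln GO 1 and 3232 CPM in Apln STOP 2 but to 775.8 CPM in Apln GO 2 and 594.9 CPM in Apln STOP 1. The part of fibroblasts in the Lgals1 level was not tested. At this spread a fall of the size seen in tumor ECs lay within the interval for Lgals1.

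**Figure D4:**
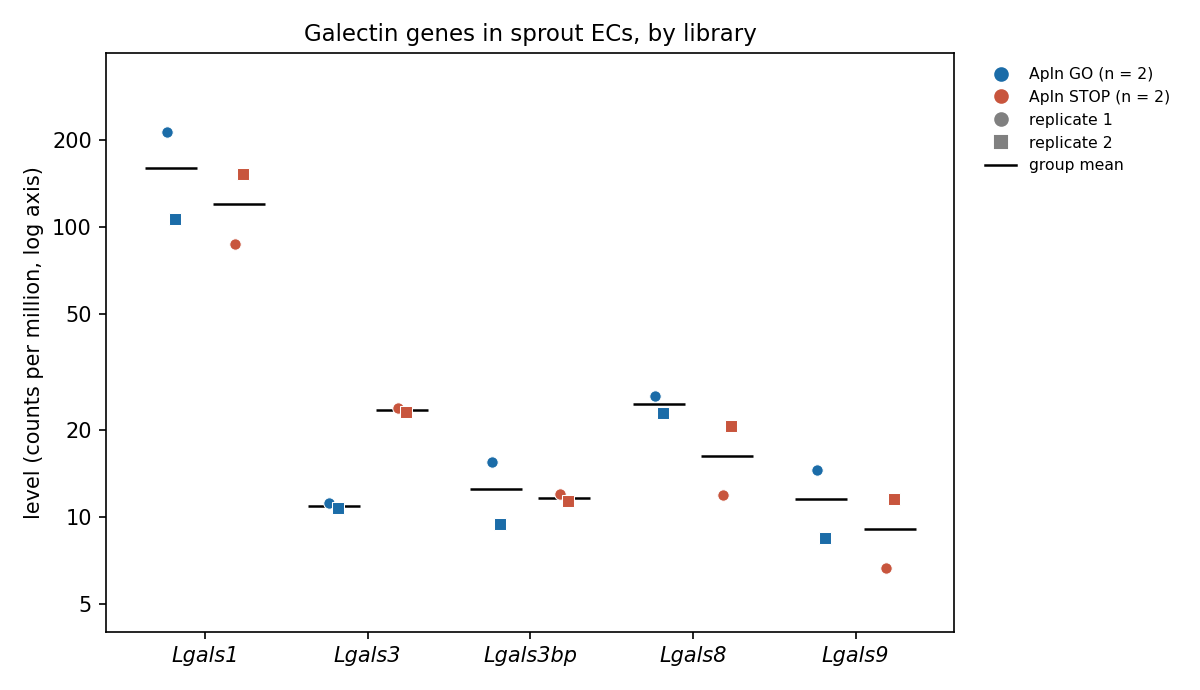
Level of each of the 5 genes in CPM (log axis) in the 2 Apln GO and 2 Apln STOP libraries of sprout ECs, with circles for replicate 1, squares for replicate 2 and bars for group means. Lgals3 sits at 23.0 and 23.7 CPM in Apln STOP above 10.7 and 11.1 CPM in Apln GO, whereas the groups overlap for Lgals1, Lgals3bp and Lgals9.

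Lgals8 was at 11.9 and 20.5 CPM in Apln STOP and at 26.2 and 22.9 CPM in Apln GO, so that both Apln STOP libraries were lower. Its log2 fold change was -0.60 ± 0.28 (SE, 95% interval -1.25 to 0.045, adjusted p = 0.215, edgeR), and 29.6% of all genes tested had both Apln STOP libraries below both Apln GO libraries. Without Apln STOP 1 the log2 fold change was -0.24 and without Apln STOP 2 it was -1.06 (adjusted p = 0.728 and 0.0720, edgeR). Lgals9 was at 6.63 and 11.5 CPM against 14.6 and 8.47 CPM in Apln GO, with a log2 fold change of -0.36 ± 0.37 (SE, 95% interval -1.23 to 0.51, adjusted p = 0.580, edgeR). Like Lgals1, it was higher in the libraries with high fibroblast markers, and the part of fibroblasts in it was not tested. Lgals3bp was at 11.98 and 11.3 CPM against 15.5 and 9.43 CPM in Apln GO, with a log2 fold change of -0.10 ± 0.29 (SE, 95% interval -0.77 to 0.57, adjusted p = 0.848, edgeR). For Lgals9 and Lgals3bp the groups overlapped. Without Apln GO replicate 1 their log2 fold changes turned to 0.092 and 0.303, and that of Lgals9 was 0.007 without Apln STOP replicate 1.

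Per length, by the deposited TPM, Lgals1 was first in every sprout library, with 161.5 and 276.2 TPM in Apln STOP and 457.8 and 208.2 TPM in Apln GO, or 78.3% to 88.6% of the sum of the 5 genes. Lgals3 was second in both Apln STOP libraries, at 24.6 and 23.6 TPM, while Lgals8 was second in both Apln GO libraries, at 17.1 and 13.01 TPM. In Apln GO the mean levels of Lgals8, Lgals3, Lgals9 and Lgals3bp, at 15.1 ± 2.91, 12.6 ± 1.34, 12.4 ± 5.49 and 8.98 ± 3.92 TPM, did not differ between neighbours beyond their spread. In Apln STOP, Lgals3 at 24.1 ± 0.735 TPM stood above Lgals8, Lgals9 and Lgals3bp at 9.07 ± 3.44, 8.46 ± 3.40 and 7.37 ± 0.212 TPM, and those 3 did not differ beyond their spread. The tumor and sprout libraries were made and counted by different protocols and were not tested against each other.

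**Figure D5:**
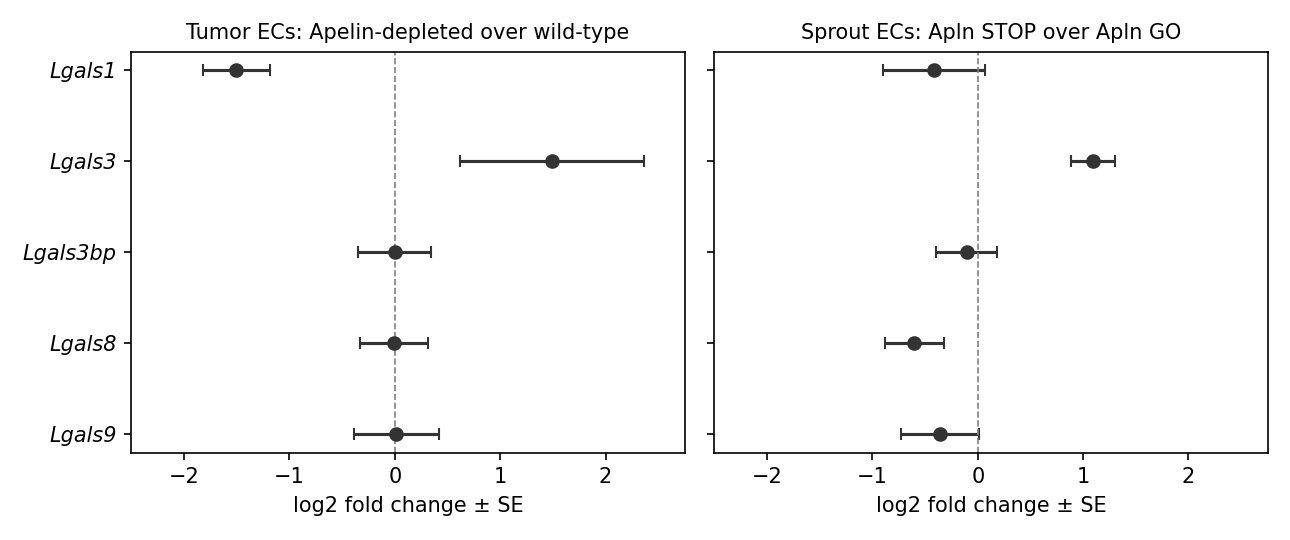
Log2 fold change (points) with its standard error from edgeR (bars) for the 5 genes, Apelin-depleted over wild-type in tumor ECs on the left and Apln STOP over Apln GO in sprout ECs on the right. Lgals1 stands at -1.50 and -0.42 and Lgals3 at 1.49 and 1.10, and the tumor values of Lgals3bp, Lgals8 and Lgals9 lie near 0.

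The members were also compared in how they varied over the tumor libraries. After the group mean was subtracted from log2(CPM + 1), Lgals9 and Lgals3bp had a Pearson r of 0.73 over the 9 libraries (Spearman rho 0.65). This r was 0.70 without the 2 libraries farthest from their group mean in Lgals3bp, and 0.47 without those farthest in Lgals9. Both are known to respond to interferons. Lgals1 went the other way, with r = -0.67 to Lgals3bp and -0.57 to Lgals9. Both rest in part on a few libraries. Without the 2 farthest from their group mean in Lgals1, r was -0.28 and -0.63. It was -0.43 to Lgals3bp without those farthest in Lgals3bp, and -0.16 to Lgals9 without those farthest in Lgals9. These are descriptions over libraries that share a protocol and differ in depth.

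Among 9274 genes with a mean of at least 10 CPM, the 3 most like Lgals9 were Mrpl2 (r = 0.97), Ms4a4d (0.97) and Vps45 (0.96), and those most like Lgals3bp were H2-D1, a class I histocompatibility gene (0.94), Pter (0.94) and Fuca1, a lysosomal fucosidase (0.93). The most like Lgals3 were the glycolytic enzyme Pgk1 (0.97), the asparagine synthetase Asns (0.97) and the prostaglandin E synthase Ptges (0.96). With the 2 libraries farthest from their group mean in Lgals3 left out these were 0.90, 0.90 and 0.86. The most like Lgals1 were Tnrc6c (0.94), 2610301B20Rik (0.94) and the clock gene Per3 (0.93), which fell to 0.76, 0.67 and 0.91 without such libraries. The most like Lgals8 were Mical3, Vps39 and Slc4a7 (0.95, 0.95 and 0.94). The highest of so many genes is high by selection alone.

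The promoters were searched on both strands for AANNGAAA, the core letters bound by interferon regulatory factors, in RefSeq windows (GRCm38.p6) from 250 bases before to 50 after the start. Promoters of 4 members were in the table, and 23.9% of its 32851 promoters held the motif. Lgals9 held 3 matches and Lgals3bp 1, which are shown as 30-base windows on the gene strand with the match in capitals.
Lgals9, chr11:78985057-78985086, minus strand: cagagcacaggAAGGGAAAgtcaaggcaga
Lgals9, chr11:78984961-78984990, minus strand: ctgacatcagcTTTCTTTTtctctagacac
Lgals9, chr11:78984891-78984920, minus strand: aatagctgtggTTTCTGTTtcctagctcag
Lgals3bp, chr11:118401955-118401984, minus strand: tgttttctgaaAATCGAAActaggtgaggt
The matches of Lgals9 began at positions -151, -55 and 16 from the start, the last 2 on the opposite strand, and that of Lgals3bp at -14. The windows of Lgals3 and Lgals8 did not hold these letters.

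Galectins act through the sugars that other enzymes build and cap, so lists of these partners were read in the same fits. In sprout ECs, 2 of 10 tested enzymes that cap galectin ligands with sialic acid or sulfate decreased in Apln STOP and none increased. They were the sialyltransferase St3gal1, at 22.4 ± 6.36 against 76.4 ± 18.0 CPM (log2 fold change -1.78 ± 0.26 SE, adjusted p = 0.0167), and the sulfotransferase Chst1, at 16.03 ± 5.54 against 41.2 ± 1.35 CPM (log2 fold change -1.37 ± 0.25 SE, adjusted p = 0.0256). Along with them the summed endothelial markers were lower in Apln STOP, as given above, and so were without overlap the sums of blood progenitor and erythroid markers (42.2 to 93.5 against 260.3 to 357.8 CPM), endoderm markers (85.2 to 148.2 against 306.3 to 413.0 CPM) and mural cell markers (375.7 to 607.9 against 625.3 to 1070 CPM). The part of these cells in the 2 decreases was not tested. The median of the list was -0.61 beside 0.005 over all genes, of which 3.03% decreased by these thresholds. St6gal1, whose sialic acid blocks galectin-1, had a log2 fold change of -0.66 ± 0.17 (SE, adjusted p = 0.0601). All adjusted p-values in this paragraph and in the next are from edgeR with n = 2 libraries per group.

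Of 24 tested enzymes that branch N-glycans and extend galectin ligands, none passed the thresholds with edgeR, 1 decreased with DESeq2 (3.23% of all genes), and 7 were lower and 1 higher at an unadjusted p of 0.05, shares which were 14.3% and 12.4% over all genes. Their median was -0.29. By adjusted p alone Mgat1, Mgat4b and Man2a2 passed, at 0.0394, 0.0396 and 0.0414 (edgeR). Their log2 fold changes of -0.88 ± 0.19, -0.64 ± 0.14 and -0.74 ± 0.17 (SE) were too small for the threshold. Mgat5, which makes the branch galectins prefer, had a log2 fold change of -0.40 ± 0.32 (SE, adjusted p = 0.456), and the galactosyltransferase B4galt1 one of -0.56 ± 0.20 (SE, adjusted p = 0.133). Of 29 tested glycoproteins known to bind galectins, 5 decreased, where 3.03% of all genes did, and none increased, with a median of -0.63. They were the VEGF receptor Kdr at -1.95 ± 0.20, VE-cadherin Cdh5 at -1.98 ± 0.27, Mcam at -1.57 ± 0.20, von Willebrand factor Vwf at -1.87 ± 0.30 and integrin subunit Itgb3 at -1.01 ± 0.17 (log2 fold change ± SE, adjusted p = 0.00437, 0.0173, 0.00999, 0.0281 and 0.0179). Kdr, Cdh5 and Vwf are also in the list of endothelial markers that were lower in Apln STOP, as is Mcam in that of mural cells, and the part of endothelial cell content in these decreases was not tested. Of these 5 and the 2 capping enzymes, 2 were called without Apln GO replicate 1, 4 each without Apln GO replicate 2 or Apln STOP replicate 1, and all 7 without Apln STOP replicate 2, where the lone library of the group is assumed to vary like those of the other.

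Other binding partners did not pass. The integrin subunit Itga5 missed only the fold change threshold, at -0.98 ± 0.17 (log2 fold change ± SE, adjusted p = 0.0211, edgeR). Nrp1, a co-receptor for VEGF, had a log2 fold change of -1.55 ± 0.50 (adjusted p = 0.172), and Cd44, the hyaluronan receptor, one of -1.54 ± 0.45 (adjusted p = 0.116). The galectin-8 partners Alcam and Pdpn were at -0.56 ± 0.95 and -0.16 ± 0.19 (adjusted p = 0.758 and 0.643), and the integrin subunits Itgb1 and Itgav at -0.30 ± 0.25 and -0.05 ± 0.15 (adjusted p = 0.479 and 0.875; log2 fold change ± SE, edgeR). None of 5 tested partners of galectins at damaged endosomes passed. Havcr2, which encodes TIM-3, was under the limit for testing, at 0.108 and 0.147 CPM.

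In tumor ECs none of the 67 partner genes tested in these 4 lists passed the thresholds with edgeR, with 2 lower and 4 higher at an unadjusted p of 0.05, and DESeq2 called 1 decreased. Over all genes these shares were 2.94% lower and 1.87% higher, and 0.461% decreased with DESeq2. Kdr was at 923.8 ± 273.5 CPM in the depleted and 591.5 ± 129.4 CPM in the wild-type libraries, with overlap (log2 fold change 0.64 ± 0.28 SE, adjusted p = 1.00, edgeR), and is itself one of the 12 endothelial markers. Of 7 other galectin genes, 3 passed the filter in each set and none of these passed the test. Lgalsl, the galectin-like gene, was at 8.64 ± 5.07 and 12.6 ± 8.22 CPM in depleted and wild-type tumor ECs and at 30.8 ± 3.92 and 35.7 ± 4.87 CPM in Apln STOP and Apln GO. Lgals4 was at 1.32 ± 0.141 CPM in Apln STOP and 2.98 ± 0.124 CPM in Apln GO (log2 fold change -1.16 ± 0.42 SE, adjusted p = 0.134, edgeR), and is uncertain because Lgals6 is a near-identical copy. Lgals2, Lgals6, Lgals7, Lgals12 and Grifin had group means of at most 0.847 CPM.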

How the data were processed

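RNA-Seq was measured in 9 libraries of tumor ECs and 4 of sprout ECs. The authors aligned the tumor reads with STAR (mm10 per the labels) and deposited whole-number counts per gene from featureCounts. For the sprout ECs the authors deposited HTSeq counts, RSEM expected counts (rounded here to whole numbers) and RSEM TPM. The submitters' processing notes list STAR 2.5.0a, HTSeq 0.6.1p1, RSEM 1.2.25 and Subread 1.6.2. By the study's text these STAR and RSEM versions were used for the sprout ECs, and later ones for the tumor ECs. HTSeq left out reads with several alignments, 42.6% to 49.6% of its tally, and these lines stayed out of library sizes.

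From these counts, each set of ECs was fitted with edgeR 4.0.16 in R 4.3.3 (TMM, filterByExpr with a minimum count of 10, robust quasi-likelihood test, Benjamini-Hochberg adjustment over all genes tested), after the fit was tested on simulated data. Calls needed an adjusted p under 0.05 and a log2 fold change over 1 in size. Means are given ± SD. Tumor TPM were computed from counts with the RefSeq lengths of the RSEM files. The members, the lists of partner and marker genes and the named genes were chosen with earlier results of these data known. Named were all members, Apln and up to 4 genes per list and direction that passed in sprout ECs. Also named were 13 partners whatever their values and the 3 genes most like each member. Partners that passed in sprout ECs by adjusted p alone were added, as were single marker genes. Some marker genes, among them Col3a1, Pdgfrb and Cldn4, were named for the values they had.

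The alternatives were DESeq2 1.42.0, its size factors in edgeR, library totals, no filter, a mean of at least 10 counts, no fold change threshold, the replicate number as a block, RSEM counts, TPM and each library left out. Precision was limited by the number of libraries and the spread between them.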

Additional observations from a re-analysis of the deposited data

Results flagged for a closer look

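Over the 6 Apelin wild-type tumor libraries, 2 stood apart from their group in marker levels, though not in a member of the galectin genes. Wild-type replicate 4 had the highest summed level of 12 macrophage markers, 581.3 CPM, and of 6 pan-leukocyte markers, 337.3 CPM. Wild-type replicate 2 had the highest summed level of 12 fibroblast markers, 7128 CPM. In each case the gap to the nearest library exceeded Dixon's 95% limit for 6 values, which chance passes in about 1 of 20 groups. It was applied to Apln, each member and each marker list, so a pass can arise by chance alone. The macrophage and pan-leukocyte passes are of the same library. Lgals1 was at 973.6 CPM in wild-type replicate 4 and at 1119 CPM in wild-type replicate 2, near the median of 1023 CPM. This limit was not applied to groups of 3 or 2 libraries, among them the one with Lgals3 at 3087 CPM.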

How the results depend on the processing

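In tumor ECs the count of decreased genes was 1 and became 97 with DESeq2, which applied its own filter and tested 21056 genes in place of 13073, 7 with no filter, 2 with the replicate block and 1 to 2 with a library left out, the higher count coming without Apelin-depleted replicate 1. The count of increased genes was 0 and became 19 with DESeq2 and 9 with no filter. With edgeR 245 genes were higher at an unadjusted p of 0.05. For Lgals3 the replicate block gave a log2 fold change of -0.14, and leaving out a library gave -1.36 to 2.00. DESeq2 gave Lgals3 no p-value in the tumor libraries, so its value there was not used. The other 4 members moved by less than their spread, the most for Lgals9, from 0.01 to 0.70 with the replicate block over replicates 1 to 3 of each group. DESeq2 called 1 partner gene decreased. The median over all genes was -0.03, and shifted to -0.13 with DESeq2 or no filter.

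In sprout ECs the 441 decreased genes became 41 with the replicate block and 135 to 548 with a library left out, with 135 without Apln GO 1 and 136 without Apln STOP 1. The 124 increased genes became 279 with no fold change threshold, 198 with DESeq2 (its own filter, 19441 genes tested in place of 14557), 222 with no filter, 3 with the block and 12 to 341 with a library left out, with 12 without Apln STOP 1, 19 without Apln GO 1 and 341 without Apln GO 2. Whether replicate numbers pair the samples is not known. Same-numbered libraries had a correlation of deviations of -0.43 in sprout ECs and of -0.14 to 0.06 in tumor ECs. With 2 libraries per group the deviations mirror each other, so the sprout value cannot show whether the samples were paired. A crossed block, chosen after seeing the data, gave 933 decreased and 302 increased genes. For Lgals3 the replicate block gave a log2 fold change of 1.10 (adjusted p = 0.118), and leaving out a library gave 1.07 to 1.12. DESeq2 gave it an adjusted p of 0.000804 and RSEM counts one of 0.0381, and its log2 ratio of mean levels was 0.93 by TPM and 1.10 by CPM. With a library left out, Lgals1 ranged from -0.89 to 0.17, Lgals3bp from -0.41 to 0.30, Lgals8 from -1.06 to -0.24 and Lgals9 from -0.82 to 0.092. Lgals1, Lgals3bp and Lgals9 turned to 0.167, 0.303 and 0.092 without Apln GO 1, and Lgals9 to 0.007 without Apln STOP 1. Decreased partner genes numbered 7, and 11 with DESeq2, 1 with the block and 2 to 12 with a library left out, a setting chosen after seeing the data, with 2 without Apln GO 1, 4 without Apln STOP 1 and 12 without Apln STOP 2. The cause of these shifts was not tested. With 2 libraries per group, differences under the intervals given for each member were not detectable.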
